A study of Sus scrofa with 4 samples.

Results

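The BCL2 family was followed through an ATAC-seq study of fetal pig fibroblasts, a donor cell for cloning by nuclear transfer. Called peaks were collected at 10 family genes, from the RefSeq gene models of build Sscrofa11.1 with 20 kb added on both sides. All 10 genes were found in the gene table. Their windows held 293 of the 400647 peaks called in the 4 libraries, which merged into 80 of 121788 union regions. A union region is a stretch in which peaks of any library overlap by at least 1 bp.

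ATAC-seq uses the Tn5 transposase to cut and tag open chromatin. The control group was 2 libraries (control 1 and control 4) of cells labelled wild type that carried the vector pTK-642. The BRG1 group was 2 libraries (BRG1 1 and BRG1 4) of cells labelled as over-expressing BRG1 from pTK-642-BRG1. SMARCA4 encodes BRG1, the motor of BAF complexes, which slide and evict nucleosomes, and the study compared chromatin openness with and without its over-expression. All 4 libraries were labelled as skin fibroblasts and as serum starved. The labels give no promoter for the vector insert and do not say whether the numbers 1 and 4 are separate cultures, clones or animals. The p-values below rest on the spread among these libraries alone, and that spread may be technical. Peaks do not measure transcripts, so the over-expression itself was not checked here.

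Proteins of the BCL2 family decide whether the outer mitochondrial membrane is breached during apoptosis. BAX and BAK, the effectors, form the pores through which cytochrome c leaves. BCL2, BCL-XL (encoded by BCL2L1) and MCL1 hold the effectors and their activators in check, and the BH3-only proteins BAD, BID, PUMA (BBC3), NOXA (PMAIP1) and BIM (BCL2L11) tip that balance in response to stress. In fibroblasts, loss of serum growth factors is a classical trigger of BH3-only activity, through BAD and BIM among others.

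The lists held 90851 peaks in BRG1 4, 96367 in BRG1 1, 105954 in control 4 and 107475 in control 1. Relative depth, read from the background that the caller used, was 93.5% of that of control 1 in control 4. It was 81.2% in BRG1 1 and 92.6% in BRG1 4, and absolute depth is unknown. BRG1 4 stood apart by its wide peaks, whose median was 541 bp where the other libraries had 396 bp to 404 bp. Of 10 fibroblast markers, 8 carried a called peak within 1 kb of either end of the gene model (a gene-end peak) in each library, which 68.2% of all protein-coding genes also did. DCN had none and FN1 had one in BRG1 1 alone. The counts for other cell types were 0 of 3 keratinocyte, 1 of 4 endothelial, 2 of 4 immune and 2 of 4 melanocyte markers, and their part in any result was not tested.

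No family region separated the groups by its calls, and most were called throughout. Of the 80 regions, 57 (71.25%) were called in all 4 libraries, against 61.8% of all union regions. No region was called in both BRG1 libraries and neither control, and none in both controls and neither BRG1 library. Over the genome these BRG1-only and control-only patterns made up 0.741% and 4.41% of union regions. Neither pattern was present in any of the 10 windows, which was also true of 76.7% of the windows of 19550 protein-coding genes.

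**Figure D1:**
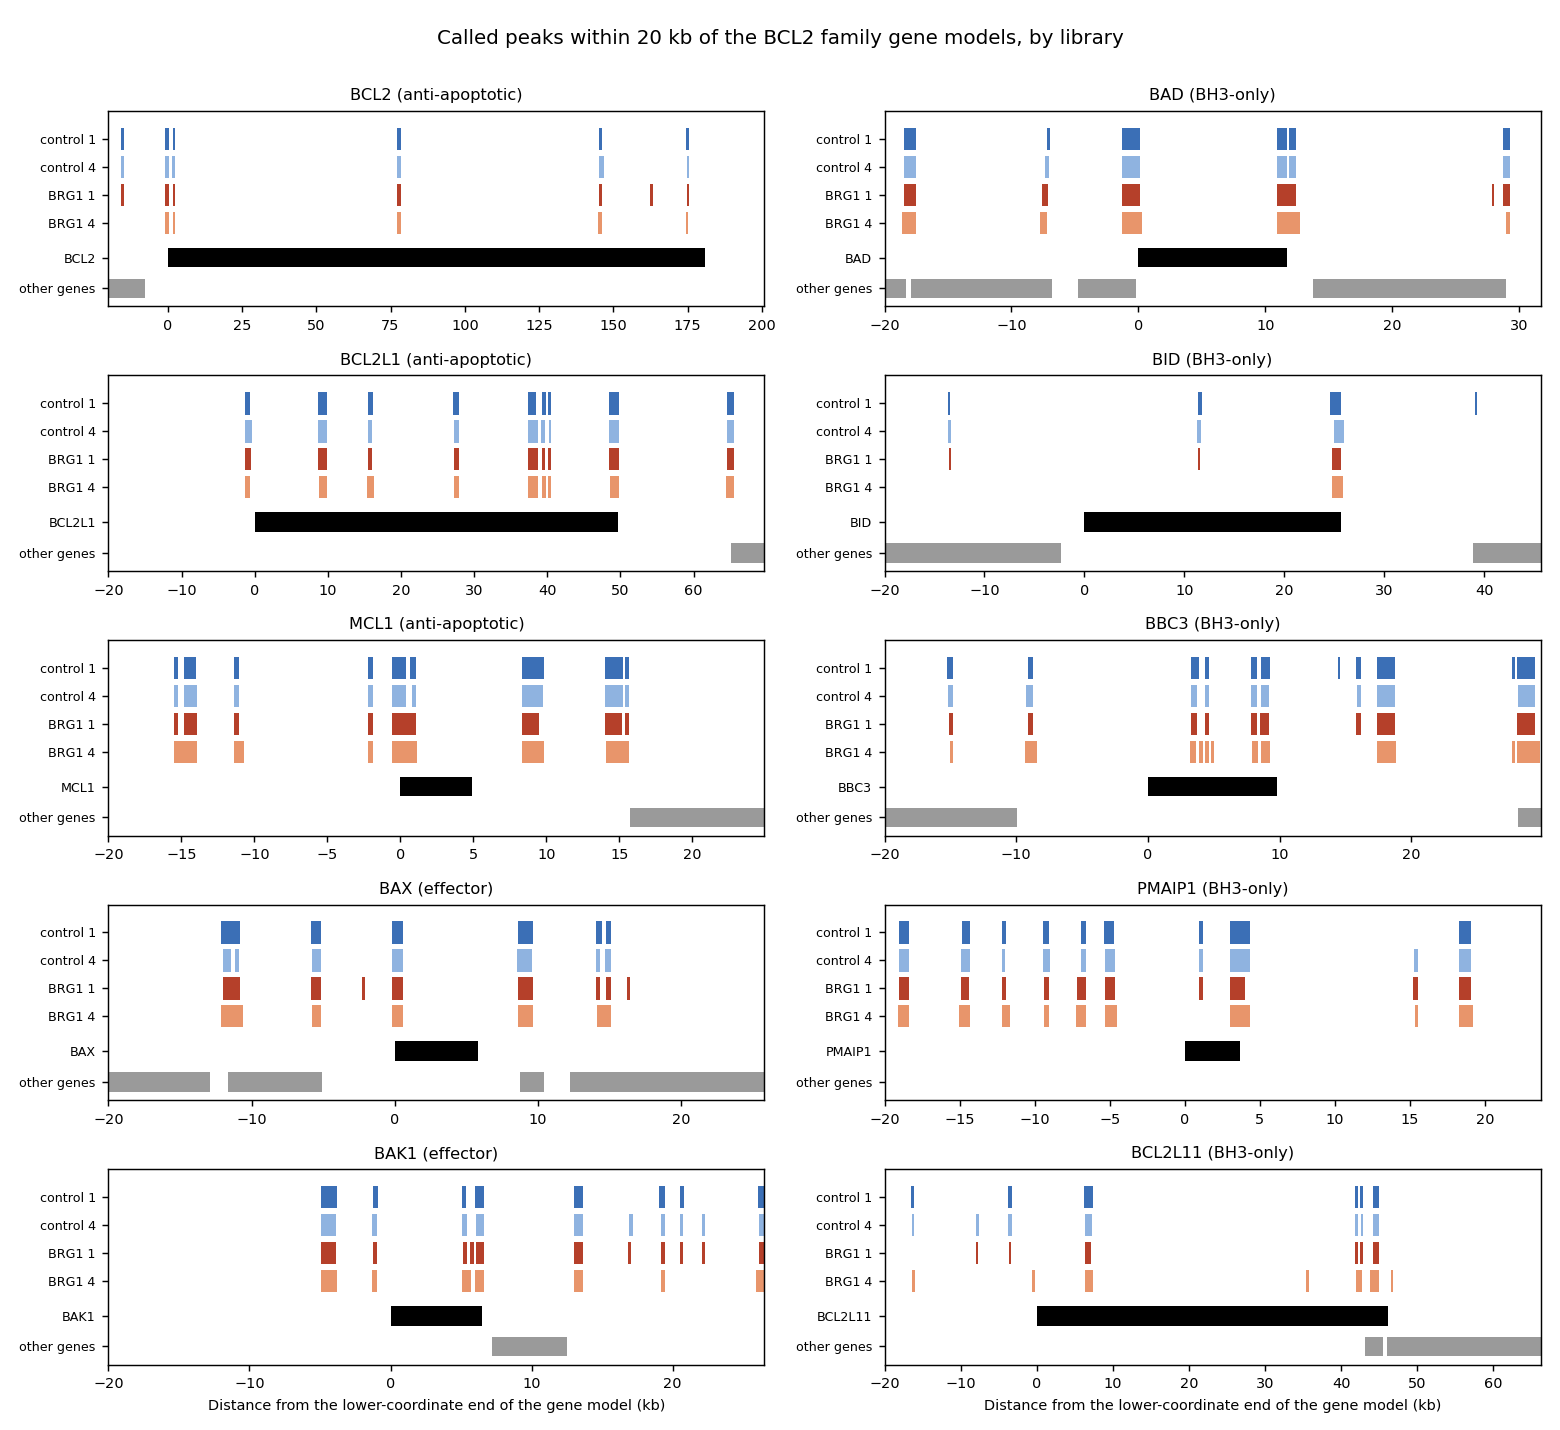
Called peaks of each library (coloured bars) by distance in kb from the lower-coordinate end of the gene model, with the model in black and other protein-coding models in grey. Narrow peaks are drawn at a minimum width of 0.4% of the window. Most peaks stand in columns of 4, MCL1 shows pairs that are joined in BRG1 4, and BID keeps 1 peak in BRG1 4.

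Peaks in the 10 windows numbered 74 and 77 in control 1 and control 4, and 77 and 65 in BRG1 1 and BRG1 4. BRG1 1 equalled the higher control, and BRG1 4 was the lowest library. BRG1 libraries averaged 71 ± 8.49 peaks and controls 75.5 ± 2.12 (SD, 2 libraries each; two-sided exact permutation test, p = 1). The ratio of 0.940 turned to 1.02 without BRG1 4. The length under those peaks was 49.4 kb and 47.7 kb in control 1 and control 4, and 48.4 kb and 53.9 kb in BRG1 1 and BRG1 4. BRG1 4 thus had the fewest peaks and the greatest length. BRG1 libraries averaged 51.1 ± 3.86 kb and controls 48.6 ± 1.17 kb (SD, 2 libraries each; the same exact test, p = 0.67). The length ratio of 1.05 turned to 0.997 without BRG1 4. With 2 libraries a group this test cannot give a p below 0.33. By role, the BRG1 to control ratio of peaks was 0.898 for the anti-apoptotic genes, 1 for the effectors and 0.944 for the BH3-only genes (exact permutation p = 0.67, 1 and 0.33). BH3-only peaks numbered 36 and 35 in control 1 and control 4, and 34 and 33 in BRG1 1 and BRG1 4. The groups were apart there and overlapped for the other roles. Over the whole lists the groups were also apart in peaks, at a BRG1 to control ratio of 0.877 (exact permutation p = 0.33). The ratio of length was 1.06, 1.07 and 1.04 (exact permutation p = 0.67, 0.33 and 1). Effector length was 8.81 kb and 8.38 kb in control 1 and control 4, and 9.12 kb and 9.33 kb in BRG1 1 and BRG1 4. In length only the effectors had groups apart. Over the whole lists the ratio of length was 0.989, with overlapping groups.

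The 10 windows differed far more from each other than the groups did. Mean density over the 4 libraries ran from 0.283 peaks per 10 kb at BCL2 to 2.17 at PMAIP1, a 7.68-fold range. The median over all protein-coding windows was 0.656, with quartiles of 0.361 and 1.03. Above 97% of all windows lay MCL1 at 1.78, BAK1 at 1.94, BBC3 at 2.01 and PMAIP1. BCL2 and BID (0.419) lay above 19.3% and 29.7% of windows. BAX at 1.42, BAD at 1.11, BCL2L1 at 1.00 and BCL2L11 at 0.754 lay above 90.7%, 79.4%, 73.7% and 57.4%. BCL2 has the longest model of the 10, at 180812 bp. The densest windows, those of PMAIP1, BBC3, BAK1, MCL1 and BAX, have the shortest models, from 3681 bp to 9800 bp. Their windows are thus mostly flank, and the part of length in this measure was not tested.

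**Figure D2:**
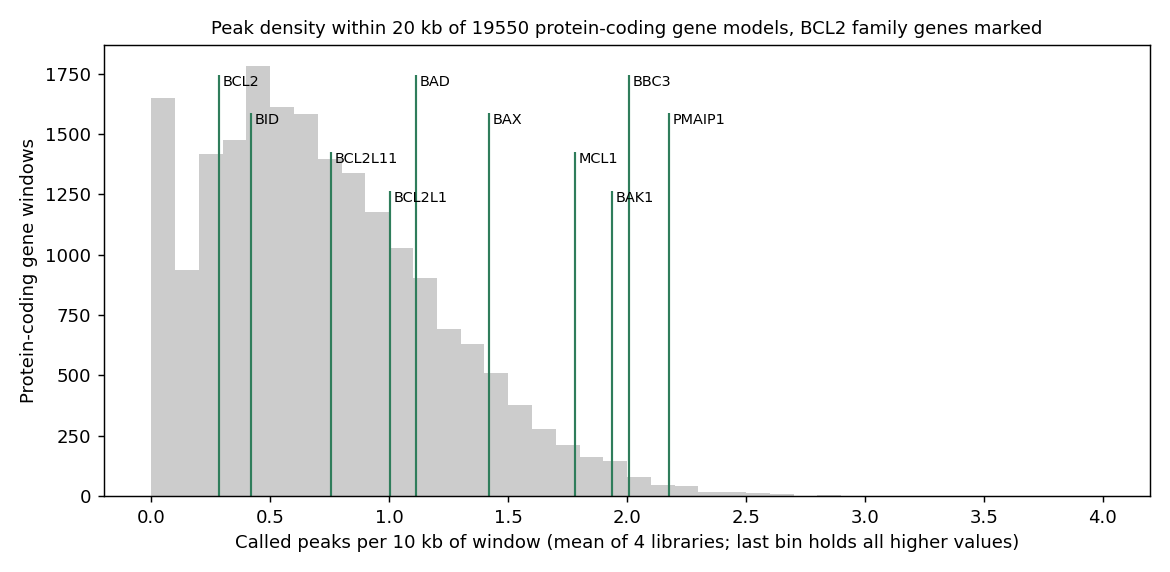
Histogram of called peaks per 10 kb of window (mean of 4 libraries) over 19550 protein-coding genes, with the 10 family genes as vertical lines. PMAIP1, BBC3, BAK1 and MCL1 stand in the upper tail and BCL2 and BID below the median of 0.656.

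To compare the strength of a region between libraries, the 75244 regions called in all 4 libraries were ranked within each library by the −log10 p-value of their strongest peak. The shared rank runs from 0 for the weakest to 100 for the strongest, over the same regions in each library. The 57 shared family regions were strong ones, with a median of their mean rank of 76.6 against 48.7 over all shared regions, and 49 of 57 ranked over 50. All shared regions include those far from genes, and the part of this in the comparison was not tested. Of the 57, 9 spanned an end of a family gene model, 18 lay inside a model and 30 outside. The end of another protein-coding gene was nearer than that of the family gene for 18 of the 57.

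Among anti-apoptotic genes, BCL2L1 had the most uniform window. BCL2L1 (NCBI gene 397536) lies on chromosome 17 from 35366139 to 35415798. Its window held 9 peaks in each of the 4 libraries, all in the same 9 regions. The strongest region of the gene itself spanned the higher-coordinate end of the model, from 35414581 to 35415959. Its shared rank was 90.5 and 92.1 in control 1 and control 4, and 93.1 and 96.8 in BRG1 1 and BRG1 4, so that both BRG1 libraries lay above both controls. A region 404 bp outside the lower-coordinate end (35364795 to 35365735) ranked at 84.1, 83.7, 83.3 and 90.7 in the same order of libraries, and there the groups overlapped.

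Inside the BCL2L1 model, 3 regions also ranked higher in both BRG1 libraries than in both controls. The region from 35393302 to 35394131 ranked at 55.5 and 59.2 in control 1 and control 4, and 69.8 and 67.4 in BRG1 1 and BRG1 4, a difference of 11.2 between group means. That from 35374818 to 35376009 ranked at 72.4, 78.1, 79.9 and 89.5, and that from 35381557 to 35382466 at 73.0, 74.6, 79.3 and 79.7. Both overlap a long non-coding RNA model, LOC106506650, so the call cannot be given to BCL2L1 alone. In total 4 of the 9 BCL2L1 regions had both BRG1 ranks above both control ranks and 0 had both below, orders found at 19.4% and 18.7% of all regions called in every library. The highest-ranking region of the window, from 35430578 to 35431712, covered an end of TPX2, a spindle assembly factor, and ranked at 97.9 or more in every library.

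MCL1 encodes a short-lived anti-apoptotic protein. The gene (NCBI gene 397648) lies on chromosome 4 from 98562092 to 98567014. Its window held 9 and 9 peaks in control 1 and control 4, and 8 and 6 in BRG1 1 and BRG1 4. Both BRG1 libraries had fewer peaks than both controls, as did 19% of all protein-coding windows, and MCL1 was the 1 family gene with this order. None of the 10 had more peaks in both BRG1 libraries, an order found in 1.29% of all windows. The number of regions did not differ: the same 6 regions were called in all 4 libraries.

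The lower peak counts at MCL1 came from neighbouring peaks that were joined. At the lower-coordinate end of the model control 1 had peaks from 98561504 to 98562474 and from 98562739 to 98563168, and control 4 had a similar pair. BRG1 1 had a single peak there from 98561532 to 98563191, and BRG1 4 one from 98561530 to 98563200. The shared rank of this region was 95.0 and 94.5 in control 1 and control 4, and 94.5 and 97.9 in BRG1 1 and BRG1 4. How often both controls have 2 peaks and both BRG1 libraries 1, as at this end, was not counted over all shared regions. At both outermost regions (98546562 to 98548162 and 98576122 to 98577743) the 3 other libraries had 2 peaks and BRG1 4 had 1. The length under peaks in the window was 6.18 kb and 6.01 kb in control 1 and control 4, and 6.14 kb and 7.33 kb in BRG1 1 and BRG1 4, and the 2 groups overlapped.

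A single MCL1 region had both BRG1 ranks below both controls. It lies 10739 bp outside the lower-coordinate end, from 98550682 to 98551353, with shared ranks of 85.8, 86.7, 79.1 and 73.4 in control 1, control 4, BRG1 1 and BRG1 4. The peak there was 334 bp and 352 bp wide in control 1 and control 4, and 343 bp and 659 bp in BRG1 1 and BRG1 4. This order held at 1 of the 6 MCL1 regions and the reverse at 3, against the same 18.7% and 19.4% of all such regions. Of those 3, the region from 98559860 to 98560210, ranked at 58.6, 52.9, 62.0 and 64.1 in that order of libraries. The region from 98570394 to 98571910, beyond the other end of the model, ranked at 86.9, 85.9, 87.2 and 90.2. The region from 98576122 to 98577743, which lies 70 bp from an end of ADAMTSL4, a gene for a matrix protein, ranked at 87.1, 90.1, 90.4 and 94.8.

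BCL2, the founding member of the family, spans chromosome 1 from 158337403 to 158518214 (NCBI gene 100049703). It had 6 and 7 peaks in control 1 and control 4, and 7 and 5 in BRG1 1 and BRG1 4, with 5 of 7 regions in all 4 libraries. Its strongest region was not at an end of the model but inside it, from 158482342 to 158483680, which is 34534 bp from the higher-coordinate end. That region ranked at 97.0 and 97.5 in control 1 and control 4, and 97.1 and 95.7 in BRG1 1 and BRG1 4. The region across the lower-coordinate end (158336512 to 158337839) ranked at 59.7, 55.1, 61.5 and 56.2 in the same order. The groups overlapped at both, and at all 5 shared BCL2 regions. A further region inside the model, from 158414631 to 158415977, ranked at 82.0, 75.9, 81.5 and 87.7.

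The effectors gave mixed patterns. BAX (NCBI gene 396633, chromosome 6, 54222341 to 54228150) had 6 and 7 peaks in control 1 and control 4, and 8 and 5 in BRG1 1 and BRG1 4. The region across its lower-coordinate end, from 54222162 to 54222948, ranked at 73.2 and 74.8 in control 1 and control 4, and 80.1 and 60.1 in BRG1 1 and BRG1 4. The BRG1 libraries lay on opposite sides of the controls there. The strongest region of the window (54230909 to 54231972) covered an end of FTL, the light chain of the iron store ferritin, 2759 bp beyond the BAX model, at ranks of 95.0 to 98.5. One BAX region had both BRG1 ranks below both controls, from 54210178 to 54211776 at an end of the neighbour DHDH, with ranks of 86.8, 85.6, 83.6 and 76.1 in the order above. The length under peaks was 4.57 kb and 4.05 kb in control 1 and control 4, and 4.70 kb and 5.13 kb in BRG1 1 and BRG1 4. Both BRG1 libraries exceeded both controls, as in 13.4% of all protein-coding windows.

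BAK1 (NCBI gene 397543, chromosome 7, 29808849 to 29815345) had 8 and 10 peaks in control 1 and control 4, and 11 and 7 in BRG1 1 and BRG1 4, so both extremes were BRG1 libraries. The region across its higher-coordinate end, from 29814830 to 29815487, ranked at 83.7 and 86 in control 1 and control 4, and 77.1 and 67.4 in BRG1 1 and BRG1 4. Both BRG1 libraries lay below both controls, by 12.6 between the means. This was the widest downward gap of the 57 shared regions, in a set in which 7 had this order. The deposited fold over background at that summit was 14.9 and 16.2 in control 1 and control 4, and 12.2 and 8.69 in BRG1 1 and BRG1 4, each on the scale of its own library. Fold and rank come from the same peak, so the fold is not separate evidence. The next region inside the model (29813902 to 29814736) ranked at 36.2, 31.7, 45.4 and 29.5, with overlapping groups. A long non-coding RNA model, LOC102162214, overlaps both. On the far side of the model, the region from 29803912 to 29805053 ranked at 78.1, 77.2, 80.5 and 82.8, with both BRG1 libraries above both controls.

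Among the BH3-only genes, PMAIP1 and BBC3 had the densest windows, and BID and BCL2L11 the smallest shares of regions called in all 4 libraries, at 1 of 4 and 3 of 9. PMAIP1, which encodes NOXA, lies on chromosome 1 from 161184458 to 161188138 (NCBI gene 397278). No other gene model of the table falls in its window, so all 10 of its regions are nearest to PMAIP1 itself. It had 9 and 10 peaks in control 1 and control 4, and 10 and 9 in BRG1 1 and BRG1 4, with 8 of 10 regions in all 4 libraries. The strongest crossed the higher-coordinate end, from 161187441 to 161188813, at ranks of 93.7 and 91.4 in control 1 and control 4, and 93.9 and 91.8 in BRG1 1 and BRG1 4. The groups overlapped at this end.

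Outside the PMAIP1 model, the groups were apart in rank at 4 of 7 shared regions and overlapped at 3. Both BRG1 ranks lay above both controls at 3 and below at 1, orders found at 19.4% and 18.7% of all shared regions. The region from 161202703 to 161203655, 14565 bp beyond the higher-coordinate end, ranked at 39.5 and 26.7 in control 1 and control 4, and 42.5 and 68.9 in BRG1 1 and BRG1 4. The gap of 22.6 between means was the widest of the 57, and most of it came from BRG1 4, since BRG1 1 lay close to control 1. On the other side, the region from 161179093 to 161179951 ranked at 47.8, 41.5, 52.0 and 59.9, and that from 161169397 to 161170165 at 81.2, 81.1, 84.8 and 89.2. The farthest region on that side (161165373 to 161166118) went the other way, at 91.0, 87.6, 85.4 and 85.8. The 3 with overlapping groups had ranks between 33.4 and 77.7. A small region inside the model, from 161185386 to 161185662, was called in every library except BRG1 4.

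BBC3, which encodes PUMA, lies on chromosome 6 from 53037103 to 53046902 (NCBI gene 100517403), with 11 and 9 peaks in control 1 and control 4, and 9 and 11 in BRG1 1 and BRG1 4. It was the window with the most regions, 12, of which 8 were in all 4 libraries and 5 lay inside the model. The region nearest an end of the model, 551 bp inside the higher-coordinate end (53045624 to 53046351), ranked at 68.4 and 60.9 in control 1 and control 4, and 78.3 and 61.9 in BRG1 1 and BRG1 4, with overlapping groups. The region from 53054507 to 53055896, 7605 bp beyond that end and outside any model, ranked at 87.8, 89.4, 90.3 and 88.5. BRG1 4 alone had a peak inside the model from 53041870 to 53042114. The strongest region, from 53065125 to 53066900, covered an end of the neighbour CCDC9 and ranked at 96.1, 96.4, 96.9 and 97.1. This region and that from 53027794 to 53028682, 656 bp from an end of SAE1, with ranks of 58.5, 64.0, 65.8 and 72.8, had both BRG1 libraries above both controls.

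BID, which is cleaved by caspase-8 and links death receptors to mitochondria, had the sparsest BH3-only window. It lies on chromosome 5 from 69849007 to 69874647 (NCBI gene 594852) beside BCL2L13, another member of the wider family. Peaks numbered 4 and 3 in control 1 and control 4, and 3 and 1 in BRG1 1 and BRG1 4. The 1 region in all 4 libraries crossed the higher-coordinate end of BID, from 69873547 to 69874955, at ranks of 65.3 and 67.4 in control 1 and control 4, and 78.9 and 68.6 in BRG1 1 and BRG1 4. Both BRG1 libraries lay above both controls there.

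The other BID regions were called in fewer libraries, and without BRG1 4 the count called in all the rest was 3. The regions from 69835314 to 69835682, inside the BCL2L13 model, and from 69860285 to 69860758, inside BID, were called in control 1, control 4 and BRG1 1. At the first, the peaks stood at percentiles of 5.94, 44.4 and 10.8 of their own lists, and at the second at 9.71, 22.5 and 15.3. The length under peaks at BID was 1995 bp and 1646 bp in control 1 and control 4, and 1376 bp and 1156 bp in BRG1 1 and BRG1 4. Both BRG1 libraries lay below both controls, as in 13.6% of all protein-coding windows, and BID was the 1 family gene with this order.

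BCL2L11, which encodes BIM, was the exception at the gene ends. It lies on chromosome 3 from 45156791 to 45202996 (NCBI gene 396632). Every library had a gene-end peak at 9 of the 10 family genes, against 68.2% of all protein-coding genes. No family gene lacked one altogether, which 25.8% of protein-coding genes did. At BCL2L11 such peaks were called in BRG1 4 alone, and both were small. One lay 349 bp outside the lower-coordinate end (45156221 to 45156442), at percentile 3.80 of its list, and the other 309 bp outside the higher-coordinate end (45203305 to 45203510), at percentile 45.7. The second also lies within ACOXL, whose model overlaps the end of BCL2L11. Peaks in the window numbered 6 and 7 in control 1 and control 4, and 6 and 7 in BRG1 1 and BRG1 4, and 3 of 9 regions were in all 4 libraries, or 5 in all the rest without BRG1 4.

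All 3 shared BCL2L11 regions lay inside the model. The strongest, 1222 bp from the higher-coordinate end (45200594 to 45201774), ranked at 83.5 and 85.2 in control 1 and control 4, and 87.9 and 79.1 in BRG1 1 and BRG1 4, with the BRG1 libraries on opposite sides of the controls. Its neighbour from 45198624 to 45199689 ranked at 80.8, 76.1, 72.3 and 65.4, so that both BRG1 libraries lay below both controls. It was called as 2 peaks in each library but BRG1 4, which had 1. Both lie in or close to LOC110260116, a protein-coding model nested in BCL2L11. The third, from 45163069 to 45164223 and 6278 bp from the lower-coordinate end, ranked at 66.0, 68.9, 68.4 and 75.6. Strand is not in the gene table, so which end holds the start of a gene was not assigned.

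BAD, a BH3-only protein controlled by growth factor signalling, lies in the most crowded neighbourhood (NCBI gene 100521065, chromosome 2, 7831192 to 7842864), with 5 other protein-coding models in its window. It had 6 and 6 peaks in control 1 and control 4, and 6 and 5 in BRG1 1 and BRG1 4, with 5 of 6 regions in all 4 libraries. The region across its higher-coordinate end, from 7842094 to 7843937, ranked at 95.1 and 95.3 in control 1 and control 4, and 94.2 and 94.5 in BRG1 1 and BRG1 4. Both BRG1 libraries lay below both controls, although the means differed by −0.82. A long non-coding RNA model, LOC106509317, also overlaps it. Both controls had 2 peaks there and both BRG1 libraries 1 joined peak, as at an end of MCL1. The share of this pattern over all shared regions was not counted. The region across its lower-coordinate end (7829896 to 7831451) also covers an end of GPR137, which prevents its assignment to BAD, and ranked at 87.9, 83.1, 87.3 and 92.3. Both outer regions of the window belong to the ends of other genes. That at ESRRA and CATSPERZ (7812589 to 7813699) ranked at 98.7, 98.8, 98.8 and 99.7, with both BRG1 libraries above both controls, and that at PLCB3 at 79.8, 78.7, 76.2 and 72.7, with both below.

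Length under peaks at BAD was 4.57 kb and 4.54 kb in control 1 and control 4, and 5.10 kb and 5.50 kb in BRG1 1 and BRG1 4. BAD and BAX were the 2 family genes at which both BRG1 libraries covered more than both controls. With 1 gene in the opposite order, these 3 of 10 are close to the background of 13.4% and 13.6%.

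**Figure D3:**
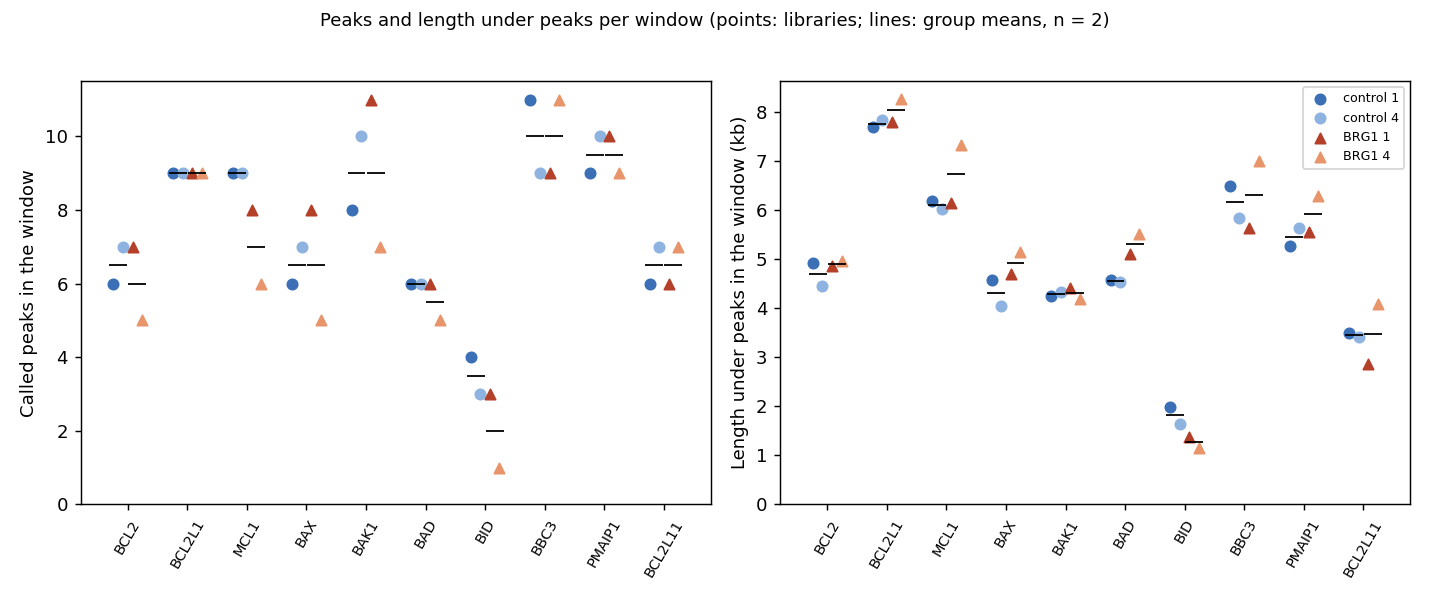
Called peaks (left) and kb under peaks (right) in the window of each family gene, with 1 point per library and lines at the group means (n = 2). BRG1 4 has the fewest peaks at MCL1 (6) and BID (1), while its length under peaks is the greatest at MCL1.

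Over the 57 shared regions, both BRG1 ranks lay above both control ranks at 15 (26.3%) and below at 7 (12.3%). Over all 75244 shared regions the shares were 19.4% and 18.7%. Among regions with a mean rank over 50, they were 14 and 7 of 49 family regions, against 18.4% and 19.5% of all such regions. By role, the 20 shared regions of the anti-apoptotic genes gave 7 above and 1 below, the 12 of the effectors 1 and 2, and the 25 of the BH3-only genes 7 and 4. These counts include regions nearer to the end of another gene. The 39 regions nearest to a family gene gave 11 above and 4 below, and the 18 nearest to another gene 4 and 3. The median BRG1 minus control difference was 2.36 on the rank scale for the family and −0.00233 over all shared regions. The median of the size of that difference was 3.87 for the family against 5.01 in all. Among regions with a mean rank over 50 it was 3.87 and 3.31, so the order of family and background turned with the strength of the regions compared. The shared rank was highest in BRG1 4 at 29 of 57 family regions (50.9%), against 35.0% of all. Without BRG1 4, BRG1 1 alone ranked above both controls at 27 of the 57 and below both at 16, against 36.1% and 35.7% of all shared regions. Counts grow when fewer libraries have to be in order. Regions near each other share their window, and no test of the family against the background was made.

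**Figure D4:**
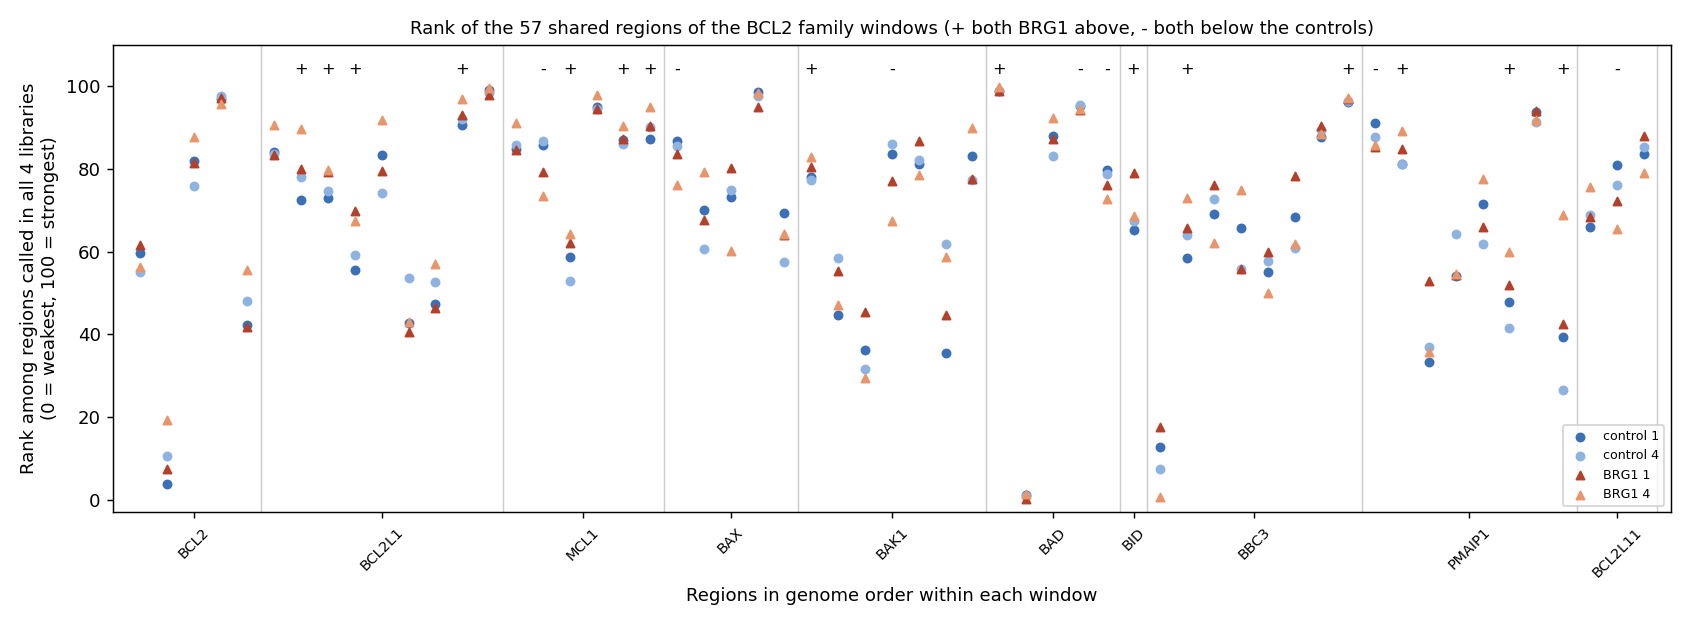
Shared rank of the 57 regions called in all 4 libraries, by family gene and in genome order, with 1 point per library. A plus marks the 15 regions with both BRG1 libraries above both controls and a minus the 7 with both below, and the widest gap is at the last PMAIP1 region.

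The 23 regions that were not called in all 4 libraries were mostly weak, with a median percentile of 21.5 within their own lists and a highest of 64.1. Of them 9 were called in 3 libraries, and BRG1 4 was the missing library at 7 of these 9 (77.8%), against 56.2% of all regions called in 3. These 7 lay in the windows of BCL2, BAK1, BID (2 regions), BBC3, PMAIP1 and BCL2L11. Another 4 regions were called in 2 libraries, in each case 1 BRG1 and 1 control library, as were 50.5% of all regions called in 2. The other 10 were called in 1 library, with 4 in BRG1 1, 4 in BRG1 4, 2 in control 1 and 0 in control 4. Over all regions called in 1 library the shares were 14.6%, 21.2%, 33.9% and 30.2% in that order of libraries. A peak missing from a list was not called at that depth, which does not show that the region was closed. Depth relative to control 1 was 92.6% in BRG1 4 and 81.2% in BRG1 1, and its part in these counts was not tested. At 4 of the 57 shared regions (7.02%), in the windows of MCL1 (2), BAX and BCL2L11, BRG1 4 had 1 peak and each other library at least 2. This was so at 1.45% of all shared regions. Whether the wide peaks of BRG1 4 bear on these counts was not tested.

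**Figure D5:**
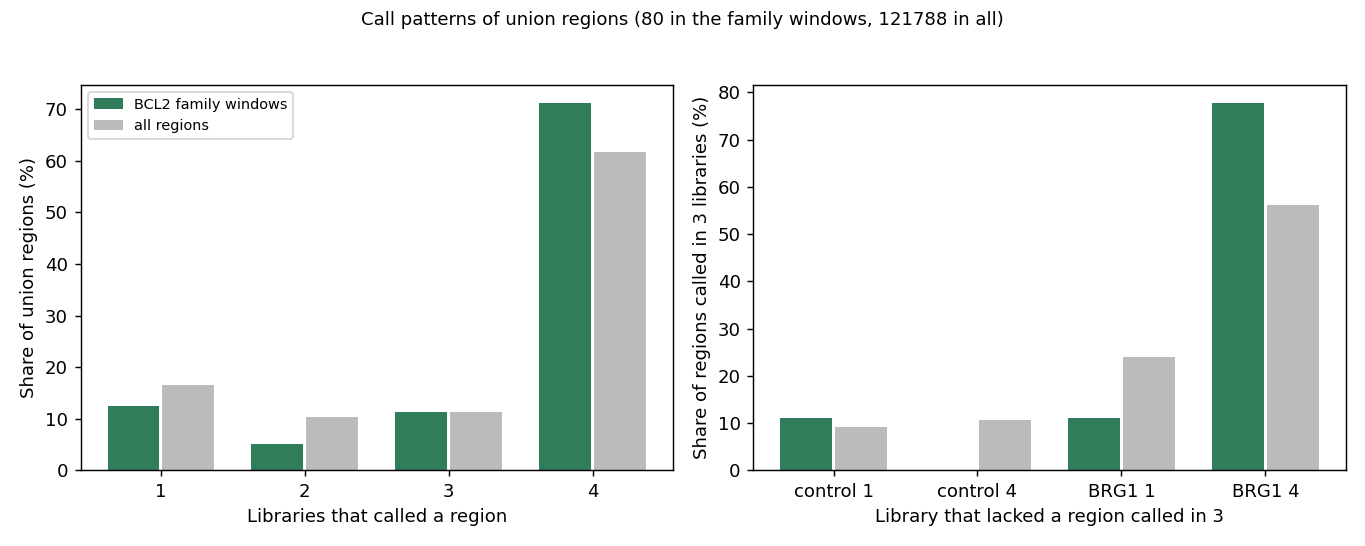
Share of union regions by the number of libraries that called them (left) and, for regions called in 3, by the library that lacked them (right), for the 80 family regions (green) and all 121788 regions (grey). Family regions were called in all 4 libraries at 71.25% against 61.8%, and BRG1 4 was the missing library at 77.8% against 56.2%.

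Other genes of the family and of the mitochondrial pathway were described by their gene ends. Of 11 further family genes, 8 carried gene-end peaks throughout and 3 in no library, near the 68.2% and 25.8% of all protein-coding genes. The 8 were BCL2L12, BCL2L13, BCL2L15, BOK, BMF, HRK, BNIP3 and BNIP3L. Those without were BCL2A1, an anti-apoptotic gene of blood cells, BCL2L10 and BCL2L14. At BCL2L10 the whole window was without a peak in each of the 4 libraries. Of 21 genes that act downstream of or beside the mitochondrion, such as APAF1, the scaffold of the apoptosome, CYCS, cytochrome c, CASP9 and XIAP, 20 carried them in each of the 4 lists, against the same 68.2%.

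Control-only regions lay in 3 of these 32 further windows and BRG1-only regions in 0, against 20.2% and 4.48% of all protein-coding windows. The region at BCL2L14 (chromosome 5, 60343650 to 60343900) lies inside the model, at percentiles of 22 in control 1 and 6.08 in control 4. That in the window of HTRA2, a mitochondrial protease (chromosome 3, 68525652 to 68525890), lies 5627 bp from the model, at 20.4 and 16.3. Both of these were weak calls in both control lists.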

How the data were processed

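Each library came with its own deposited narrowPeak list, so replicates were not pooled by the authors. Per the submitters' processing notes the build was Sscrofa11.1 and the tools included MACS2, BWA, Bowtie, FastQC and SAMtools, without version or role. For every peak the authors give a fold, which is a ratio of summit pileup to local background. They also deposited the −log10 of the p-value and of the q-value, and a score equal to the whole part of 10 times the latter. The lowest −log10 q was 1.31 to 1.35. How reads were shifted for Tn5 and how duplicates were treated is not given in the sources used here, and both can change peak number and width.

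Peaks were merged into union regions at 1 bp overlap with Python 3.11.15, pandas 2.3.3 and numpy 2.4.6, and the code was tested on simulated data. Gene positions came from the RefSeq table of the same build, which has no strand or exons, so the ends of gene models stand in for starts, and exonic and intronic positions were not assigned. Length under peaks was counted up to the window's edge. Relative depth came from solving the caller's fold and p-value for a background. At most 0.202% of intervals were identical between any 2 lists. Groups were taken from the sample titles and compared by exact permutation over libraries. Alternatives were a −log10 q of at least 5, lists of equal length, flanks of 0 and 50 kb, regions covered to 50%, a gene-end window of 3 kb, each library left out and replicate number as a block. The members and lists were chosen with earlier results of these data known. All 10 members were named, and further genes and markers by fixed lists. Of these, BCL2L2, BIK, BIRC2 and the keratinocyte marker KRT14 had no match among protein-coding models placed on a chromosome and were not used here. The shared rank was added after seeing the data. Motifs were not analysed here. One gene of the pathway list is counted but not reported by name here.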

Additional observations from a re-analysis of the deposited data

How the results depend on the processing

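Of 70 values under other settings, 46 kept their direction or lay within 1.5 times, 22 moved and 2 turned. Without BRG1 4 the ratio of peaks turned to 1.02 and that of length under peaks to 0.997. Leaving out each library in turn gave 0.861 to 1.02 for peaks and 0.997 to 1.11 for length. It gave 57 to 68 regions called in all remaining libraries, 0 to 7 control-only and 0 to 5 BRG1-only regions. Over the genome the control-only share was then 7.42% to 11.07% and the BRG1-only share 1.87% to 4.44%. Of the 57 family regions called in all 4 libraries, the BRG1 ranks then lay above at 22 to 31 and below at 9 to 16. Over all regions called in all 4 libraries, these orders made up 30.8% to 41.3% and 29.7% to 39.7%. Each pattern then has to hold in 1 library less. Flanks of 0 kb, which leave 32 regions, gave 27 in all 4 libraries, 5 above and 3 below. Flanks of 50 kb, with 155 regions, gave 115, 30 and 18, with 1 control-only and 1 BRG1-only region. Flanks leave the shares over all regions unchanged, at 4.41% control-only and 0.741% BRG1-only. Among all shared regions the ranks then lay above at 19.4% and below at 18.7%. A −log10 q of at least 5 gave 1 control-only region of 76, against 4.42% of all regions. Regions covered to 50% gave 2 BRG1-only regions of 80, against 1.49% (the cause was not tested). Lists of equal length gave 0 of both, against 2.04% for each. Gene-end peaks in all libraries were present at 9 genes, or at 10 with a window of 3 kb. The replicate number as a block gave ratios of 0.937 for peaks and 1.05 for length (exact sign-flip p = 1 for both). The main comparison was planned without pairs. Libraries of the same number did not deviate together (correlation −0.0404 over shared regions). With so few libraries this cannot show whether a number marks a shared culture, clone or animal. Absolute depth is unknown, and weak peaks near the caller's threshold are the calls it limits most.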
